A study of Mus musculus with 3 samples.

Results

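Regions carrying histone H3 acetylated at lysine 27 (H3K27ac) were examined around 10 cell cycle checkpoint genes. They are the CDK inhibitor genes Cdkn2a, Cdkn2b, Cdkn2c, Cdkn2d, Cdkn1a, Cdkn1b and Cdkn1c, and Trp53, Mdm2 and Rb1. All but Mdm2 hold the cell cycle in check, whereas the Mdm2 product degrades that of Trp53. H3K27ac marks active promoters and enhancers. Every peak within 100 kb of the body of one of these genes (build GRCm38) was taken, which gave 101 of the 38793 peaks in post-caerulein spheroids and 113 of the 37765 peaks in untreated spheroids. The gene, not the level of the mark, decided which peaks were included, but the genes were chosen with earlier results of these data known. The farthest peak inside the limit lay 99550 bp from a gene body and the nearest one outside lay 100218 bp away.

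The cells are pancreatic spheroids, three-dimensional cultures of epithelial cells from wild-type C57BL/6J mice. One set came from mice after caerulein, a cholecystokinin analogue that causes pancreatitis, and the other from untreated mice. Each condition has 1 H3K27ac library and 1 peak list, and an input library of untreated spheroids was not analysed here. The caerulein schedule, the interval before culture and the number and age of the mice are not given in the sources used here. With 1 library per condition no difference below has a replicate check, no p-value is given, and sequencing depth is unknown. All 8 duct and epithelial marker genes, among them Krt19, Sox9 and Epcam, had a peak within 1 kb of a gene end in both lists. Of 32 markers of acinar, endocrine, mesenchymal, immune and endothelial cells, 3 had one in post-caerulein spheroids and 2 in untreated spheroids, and none of the acinar, endocrine or mesenchymal markers did. A mark lost in some cells and a weaker mark in all cells cannot be told apart in such libraries.

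The Ink4 proteins, encoded by Cdkn2a to Cdkn2d, bind CDK4 and CDK6 and keep them from phosphorylating RB, the product of Rb1, which in its unphosphorylated state holds back the E2F transcription factors. The Cip/Kip proteins p21, p27 and p57, encoded by Cdkn1a, Cdkn1b and Cdkn1c, inhibit a wider range of cyclin-CDK complexes. The transcription factor p53 (Trp53) induces Cdkn1a and also Mdm2, whose ubiquitin ligase product degrades p53. Cdkn2a encodes both p16-Ink4a and, from an upstream first exon and another reading frame, p19-Arf, which blocks Mdm2. In the pancreas, Cdkn2a and Trp53 are known as tumour suppressor genes of ductal carcinoma.

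The promoters that the results turn on are shown first, as the 250 bases before each RefSeq start site (GRCm38.p6). The 3 sequences of the Cdkn2 locus are given because the Ink4a start site was marked in untreated spheroids alone. The Arf and Cdkn2b start sites were marked in both lists. Capitals mark each CG dinucleotide. They lie at chr4:89282193-89282442 (Ink4a), chr4:89294620-89294869 (Arf) and chr4:89311033-89311282 (Cdkn2b), all on the minus strand.
Cdkn2a-Ink4a: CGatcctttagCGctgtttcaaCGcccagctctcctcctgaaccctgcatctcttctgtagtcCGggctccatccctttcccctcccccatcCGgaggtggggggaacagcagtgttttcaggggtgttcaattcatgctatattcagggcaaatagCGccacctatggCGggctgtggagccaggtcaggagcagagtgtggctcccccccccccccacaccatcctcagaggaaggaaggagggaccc
Cdkn2a-Arf: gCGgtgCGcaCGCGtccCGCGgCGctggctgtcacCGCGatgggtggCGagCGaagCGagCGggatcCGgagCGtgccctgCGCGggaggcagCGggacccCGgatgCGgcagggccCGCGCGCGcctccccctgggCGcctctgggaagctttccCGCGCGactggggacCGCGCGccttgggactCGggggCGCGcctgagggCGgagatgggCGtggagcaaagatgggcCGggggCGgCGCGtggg
Cdkn2b: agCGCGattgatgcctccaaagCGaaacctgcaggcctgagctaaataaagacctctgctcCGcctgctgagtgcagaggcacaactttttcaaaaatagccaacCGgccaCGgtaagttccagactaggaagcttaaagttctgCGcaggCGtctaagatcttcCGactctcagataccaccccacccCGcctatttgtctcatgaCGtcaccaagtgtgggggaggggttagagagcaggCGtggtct
The Ink4a window held 7 CG dinucleotides, the Arf window 40 and the Cdkn2b window 12. Over 21263 start sites of protein-coding genes the median was 10. It was 16 for start sites with a peak within 1 kb in both lists and 5 for those marked in untreated spheroids alone. At least 40 CG dinucleotides were found in 1.66% of all these windows, and at least 7 in 58.6%.

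Both start sites of Cdkn1a are shown as well, since Cdkn1a is the p53 target among the CDK inhibitor genes and both of its start sites lay under a peak in each list. In the upstream window (chr17:29090729-29090978, plus strand) capitals mark matches on either strand to the p53 decamer consensus and to a pair of spaced p53 core letters, CATGNNNNNNCATG. In the downstream window (chr17:29093519-29093768, plus strand) they mark CG dinucleotides.
Cdkn1a-upstream: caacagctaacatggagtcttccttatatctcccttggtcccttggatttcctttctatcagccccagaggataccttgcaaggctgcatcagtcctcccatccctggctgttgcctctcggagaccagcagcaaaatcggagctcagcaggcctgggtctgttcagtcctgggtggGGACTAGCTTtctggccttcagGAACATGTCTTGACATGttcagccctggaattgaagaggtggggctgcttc
Cdkn1a-downstream: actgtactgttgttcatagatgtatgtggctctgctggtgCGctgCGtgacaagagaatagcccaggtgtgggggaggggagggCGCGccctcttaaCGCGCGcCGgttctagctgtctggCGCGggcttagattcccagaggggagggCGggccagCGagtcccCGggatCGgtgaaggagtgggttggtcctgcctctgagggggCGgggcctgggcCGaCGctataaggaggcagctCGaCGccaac
The upstream window had 2 decamer matches, starting 73 and 51 bases before the start site, and the CATG pair starts 48 bases before it and overlaps the second. A decamer match occurred in 6.31% and the CATG pair in 0.423% of the 21263 windows. The pair was searched after the Cdkn1a sequence had been seen, and a match is a description of the letters only. The upstream window held 2 CG dinucleotides and the downstream window 19. The 5 windows were also searched on both strands for the GC box GGGCGG, the CCAAT box, TATAAA, the AP-1 motif TGANTCA, the E box CACGTG and an E2F form (TTGGCGC as first form, TTCGCGC as second form, TTCCCGC as another and TTGCCGC as the last). Of all windows, 42.6% held a GC box, 35.4% CCAAT, 11.6% TATAAA, 6.13% the AP-1 motif, 6.63% the E box and 10% an E2F form. The Arf window had 2 GC boxes and 1 E2F form, the downstream Cdkn1a window 2 GC boxes, and the Ink4a, Cdkn2b and upstream Cdkn1a windows no such match.

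Near the 10 genes most peaks were common to both conditions, and those that were not lay more often in the untreated list. A peak that overlaps no peak of the other list by at least 1 bp is called list-only. Of the 101 post-caerulein peaks, 9 were post-caerulein-only (8.91%, exact Clopper-Pearson 95% interval 4.16 to 16.2), against 17.5% of the whole post-caerulein list. Of the 113 untreated peaks, 21 were untreated-only (18.6%, 11.9 to 26.99), against 14.3% of the whole untreated list. These intervals cover counting error over peaks only. Within 50 kb of the genes the counts were closer, at 8 peaks only in the post-caerulein list and 10 only in the untreated list. Without the windows of Cdkn2a and Cdkn2b, the 100 kb counts were 9 of 92 post-caerulein peaks (9.78%) and 14 of 97 untreated peaks (14.4%). The untreated share was then close to the 14.3% of the whole untreated list. That locus was already known from earlier results of these data to hold untreated-only peaks, so the untreated share that includes it is a description only.

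A gene is said to lean to the condition with the larger number of list-only peaks around it. Of the 10 genes, 2 (Mdm2 and Cdkn1c) leaned to the post-caerulein side, 7 leaned to the untreated side and 1 (Cdkn2c) to neither. Among 18332 protein-coding genes with any peak within 100 kb, 35.8% leaned to the post-caerulein side, 32% to the untreated side and 32.2% to neither. Cdkn2a and Cdkn2b lie 11669 bp apart, so their windows share most of their peaks and are not separate observations. The median number of peaks around the checkpoint genes was 10 post-caerulein and 14 untreated, against 7 and 7 over all genes with a peak. Cdkn2c (6 and 5) and Cdkn1c (7 and 5) did not exceed those medians of all genes.

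**Figure D1:**
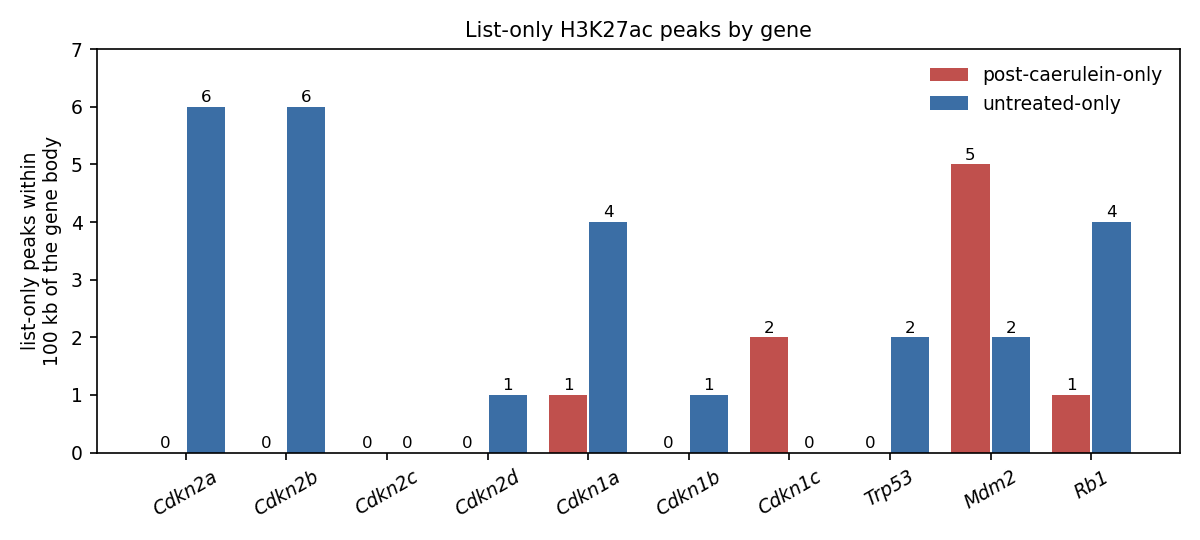
Number of list-only H3K27ac peaks within 100 kb of each gene body, with post-caerulein-only peaks in red and untreated-only peaks in blue; each bar is a count from 1 library. Cdkn2a and Cdkn2b have 0 and 6 each, whereas Mdm2 has 5 post-caerulein-only and 2 untreated-only peaks.

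The list-only peaks were narrow and low in score. The authors' peak score was read only as a rank within its own list. Over the whole lists such peaks were narrow and low as well, so this is not particular to the checkpoint genes. All post-caerulein-only peaks had a median width of 1464 bp and percentile of 15.2, against 2809 bp and 58.6 for shared peaks. All untreated-only peaks had 1536 bp and 16.4, against 2697 bp and 56.7. Near the checkpoint genes the median percentile was 12.4 for post-caerulein-only and 18.1 for untreated-only peaks. The 9 post-caerulein-only peaks had a median width of 1295 bp and the 21 untreated-only peaks of 1478 bp, against 3208 bp and 3235 bp for the shared peaks of the same windows. In rank, 8 of the 9 peaks found only after caerulein and 16 of the 21 found only without it stood in the lowest 25% of their own list. None of either kind reached the median score. Among list-only peaks at or above the 25th percentile of their list, 1 belonged to the post-caerulein list and 5 to the untreated list, and the Ink4a peak described next was not among them.

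**Figure D2:**
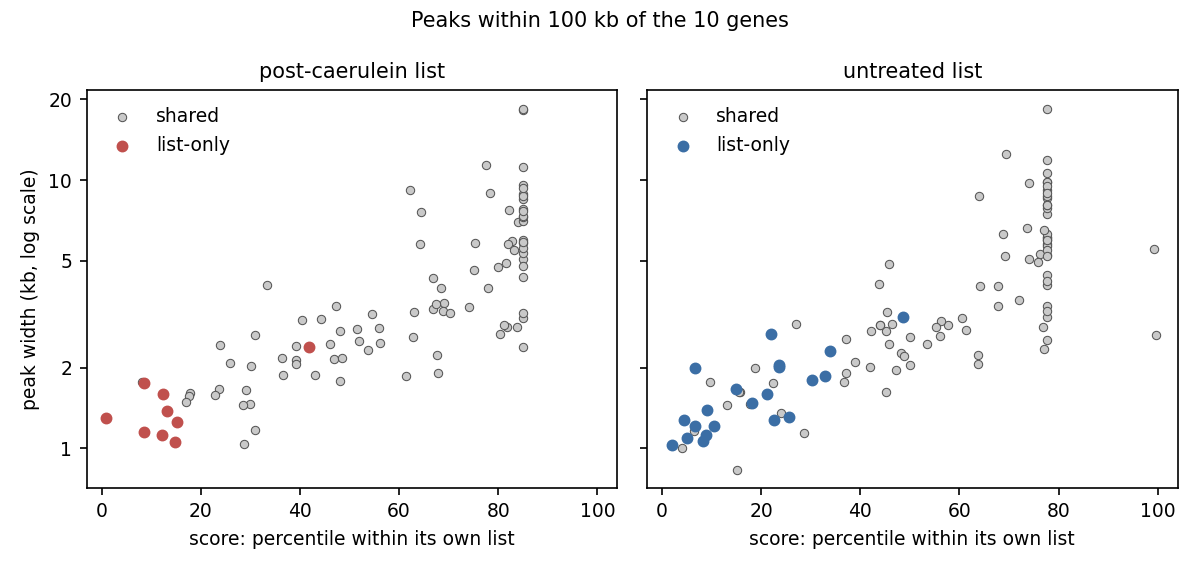
Width of each peak within 100 kb of the 10 genes (kb, log axis) against the percentile of its score within its own list, for the post-caerulein list (left) and the untreated list (right). Shared peaks are grey and list-only peaks coloured; the column of points in each panel is the score of 3100, at which many peaks pile up. All list-only peaks lie below the median score and none is wider than 3090 bp.

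One start site differed between the conditions: that of Ink4a lay under a peak in untreated spheroids alone, whereas the Arf start site was under a peak in both conditions. No post-caerulein peak came within 10624 bp of the Ink4a peak (chromosome 4, 89281368 to 89282965, 1598 bp), which covers the Ink4a window shown above. Its score exceeded 21.2% of the untreated list. The Arf start site, 12427 bp upstream of that of Ink4a, was covered by a peak of 3363 bp after caerulein and of 3400 bp in untreated spheroids. Their scores exceeded 74.1% of the post-caerulein list and 77.7% of the untreated list. The untreated Arf peak stood at the score of 3100, at which many peaks pile up, so 77.7% is the rank of every untreated peak tied there. The post-caerulein Arf peak had a score below 3100. The closeness of these percentiles therefore does not show that the Arf peak had the same standing in both lists. In all, 10 of the 11 RefSeq start sites of the checkpoint genes were marked in both lists and 1, that of Ink4a, in untreated spheroids alone. Rb1 and Cdkn1c had no RefSeq start site at hand and are left out of this count. Their gene ends are described below. Over the 21263 start sites, 53% were marked in both, 1.77% after caerulein alone and 1.03% in untreated spheroids alone.

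Around Cdkn2a (chromosome 4, 89274473 to 89294619) there were 8 peaks after caerulein and 14 in untreated spheroids. None of the 8 was post-caerulein-only and 6 of the 14 were untreated-only. All 6 had scores in the lowest 25% of the untreated list, so that at or above the 25th percentile the difference at Cdkn2a was 0, and at Cdkn2b, described below, -1, against -6 at each with every peak counted. Of these 6, 3 touch the gene itself: the Ink4a peak, a peak of 1093 bp further upstream in the gene, and a peak of 2018 bp over the end of the gene. The others lay 37665 bp and 99550 bp beyond that end, the farther one within Mtap, and 85300 bp away on the other side, within the long noncoding RNA gene Gm12610. That last peak stopped 56 bp short of the nearest post-caerulein peak and the one in Mtap 338 bp short. The nearest post-caerulein peak to the 3 peaks at the gene was 6064 to 19098 bp away.

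Cdkn2b, which encodes p15-Ink4b (chromosome 4, 89306289 to 89311032), had 8 post-caerulein and 14 untreated peaks in its window, again with 0 and 6 list-only. Its own start site was under a shared peak of 5068 bp after caerulein and 6090 bp in untreated spheroids. The 5 untreated-only peaks common to both windows were counted for each gene, so over the locus as a whole none of the 9 post-caerulein peaks and 7 of the 16 untreated peaks were list-only. A gene with at least 6 untreated-only and 0 post-caerulein-only peaks made up 0.611% of the 18332 genes. Beyond 100 kb and up to 1 Mb of the locus the lists were closer, where 6 of 47 post-caerulein peaks and 8 of 53 untreated peaks were list-only. Peaks covered 237.8 kb of those flanks in post-caerulein spheroids, against 235.8 kb in untreated ones. The locus was already known from earlier results of these data to hold untreated-only peaks. The limit of 6 and 0 was set at its own counts. Neither the share of genes nor the flanks are therefore a test of the locus.

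**Figure D3:**
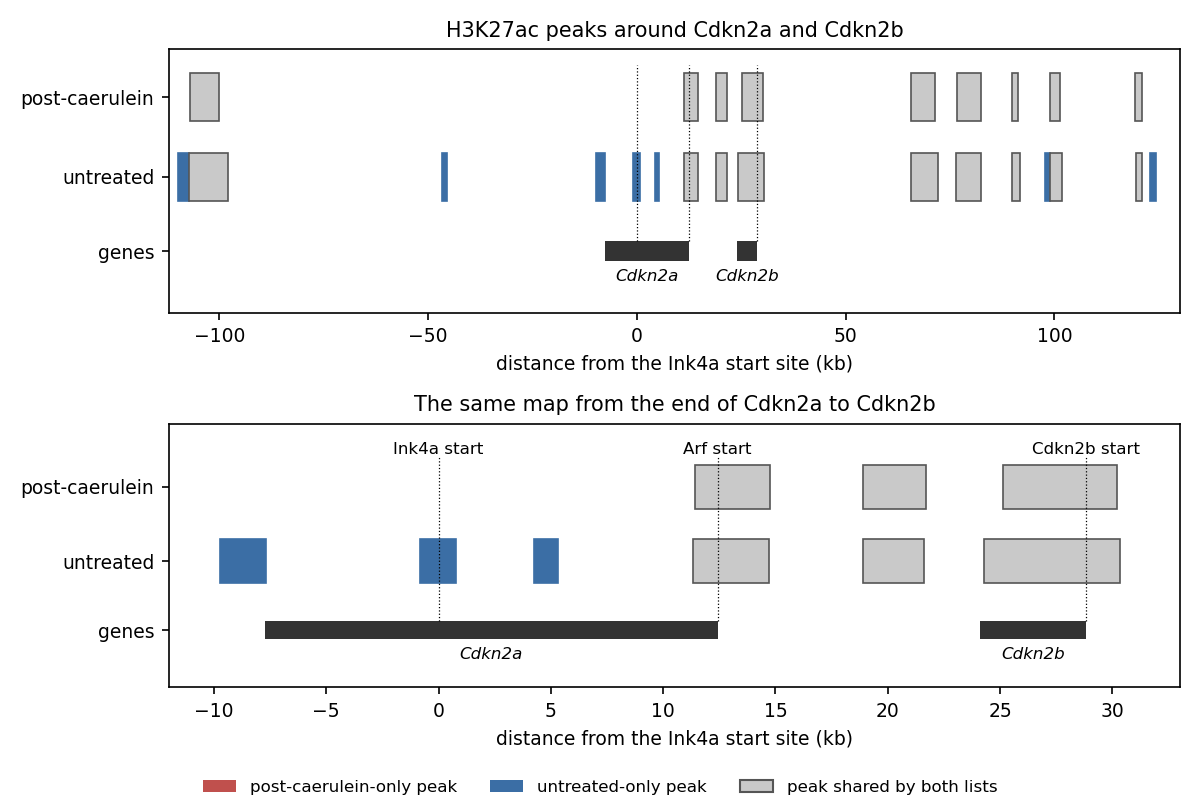
Peaks around Cdkn2a and Cdkn2b in post-caerulein spheroids (upper row) and untreated spheroids (lower row), by distance in kb from the Ink4a start site along the chromosome; list-only peaks are coloured, shared peaks grey and gene bodies black. The lower panel enlarges the genes: 3 untreated-only peaks lie at Cdkn2a, 1 of them over the Ink4a start, while the Arf and Cdkn2b starts are under peaks in both rows.

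At the other 2 Ink4 genes all but 1 peak were shared. Cdkn2c, which encodes p18-Ink4c (chromosome 4, 109660876 to 109666756), had 6 post-caerulein and 5 untreated peaks, all shared. A single untreated peak of 8557 bp lay over the gene where the post-caerulein list had adjoining peaks of 2796 and 5807 bp. A peak next to the gene was 2467 bp wide after caerulein and 4015 bp wide in untreated spheroids, a 1.63-fold greater width in untreated spheroids. Cdkn2d, which encodes p19-Ink4d (chromosome 9, 21288459 to 21291421), had 12 post-caerulein peaks, all shared, and 14 untreated peaks, of which 1 was untreated-only and lay closer to an end of Atg4d. Its start site was covered over 2157 bp after caerulein and 2613 bp in untreated spheroids.

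Among the Cip/Kip genes the promoters of Cdkn1a and Cdkn1b carried wide peaks of nearly the same extent in both conditions. The Cdkn1a peak, over both start sites shown above, was 8517 bp wide after caerulein and 8719 bp wide in untreated spheroids. These start sites, 2790 bp apart, were therefore marked as 1 domain, the CATG pair included. Around Cdkn1a (chromosome 17, 29090979 to 29100722) there were 13 post-caerulein and 15 untreated peaks, with 1 and 4 list-only. None of these 5 touched the gene: the post-caerulein-only peak lay in Rab44, 19342 bp away, and the untreated-only peaks lay 53963 to 86776 bp away, nearest to Stk38 or Cpne5. Within 50 kb of the gene the balance was therefore 1 post-caerulein-only and 0 untreated-only. That 1 peak stopped 188 bp short of the nearest untreated peak, and its score exceeded 12.4% of its list. With peaks within 1 kb counted as shared, the difference at Cdkn1a within 100 kb was -4. A peak of 5534 bp in untreated spheroids, 7806 bp from the gene, was matched after caerulein by separate peaks of 2833 and 2743 bp.

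Cdkn1b (chromosome 6, 134920401 to 134925525) lay under the widest peak of all windows, 18411 bp after caerulein and 18464 bp in untreated spheroids. It had 14 post-caerulein peaks, all shared, and 15 untreated peaks, of which 1 was untreated-only, 53743 bp away within Crebl2. Cdkn1c (chromosome 7, 143458339 to 143461059), an imprinted gene expressed from the maternal allele, was the only one of the 10 with no peak within 1 kb of a gene end in either list. The nearest post-caerulein peak was 3420 bp from it and the nearest untreated peak 11624 bp. That nearest post-caerulein peak was list-only, overlapped the noncoding RNA gene Gm33663, and had a score above only 0.887% of its list. The window held 7 post-caerulein peaks, 2 of them list-only, and 5 untreated peaks, all shared.

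The start site of Trp53 lay under a peak in both conditions, which was 5880 bp wide after caerulein and 5462 bp wide in untreated spheroids. In its window (gene at chromosome 11, 69580348 to 69591873), which holds 15 other protein-coding genes, there were 8 post-caerulein peaks, all shared, and 9 untreated peaks, 2 of them list-only. One of these, 1274 bp wide, lay within Trp53, with a score above 4.47% of the untreated list; the other lay in Dnah2, 75170 bp away.

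Mdm2 was the checkpoint gene with the most post-caerulein-only peaks. Around it (chromosome 10, 117688875 to 117710758) there were 17 post-caerulein and 15 untreated peaks, with 5 and 2 list-only. Of all genes with a peak, 3.04% had at least 5 post-caerulein-only and fewer untreated-only peaks, a limit set at the count of Mdm2 itself. Of the 5, 2 lay inside Mdm2 (1119 and 1374 bp wide) and 3 lay in a row 13120 to 16279 bp beyond its start site. That row, with widths of 1258, 1053 and 1147 bp, lay between shared peaks, and 988, 1645 and 199 bp separated its peaks from the nearest untreated peak. All 5 had scores above no more than 15.2% of the post-caerulein list. After peaks within 1 kb of each other had been merged, the difference at Mdm2 was 0. The 2 untreated-only peaks lay in the neighbouring gene Cpm. The peak over the Mdm2 start site was 7821 bp wide after caerulein and 9507 bp wide in untreated spheroids.

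Rb1, the longest of the genes (133094 bp; chromosome 14, 73192858 to 73325951), had 15 post-caerulein and 19 untreated peaks, with 1 and 4 list-only. Of the 4 untreated-only peaks, 2 lay in Rb1 (1478 and 1026 bp wide) and 2 lay 74959 and 79871 bp outside it, nearest to Rcbtb2. The untreated-only peak at 79871 bp, 3090 bp wide, was the widest and highest-ranked list-only peak of all windows, with a score above 48.6% of its list. The post-caerulein-only peak lay 83065 bp from Rb1, and its score exceeded 41.9% of its list. One end of Rb1 lay under a peak of 3455 bp after caerulein and of 6519 bp in untreated spheroids, a 1.89-fold greater width in untreated spheroids.

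**Figure D4:**
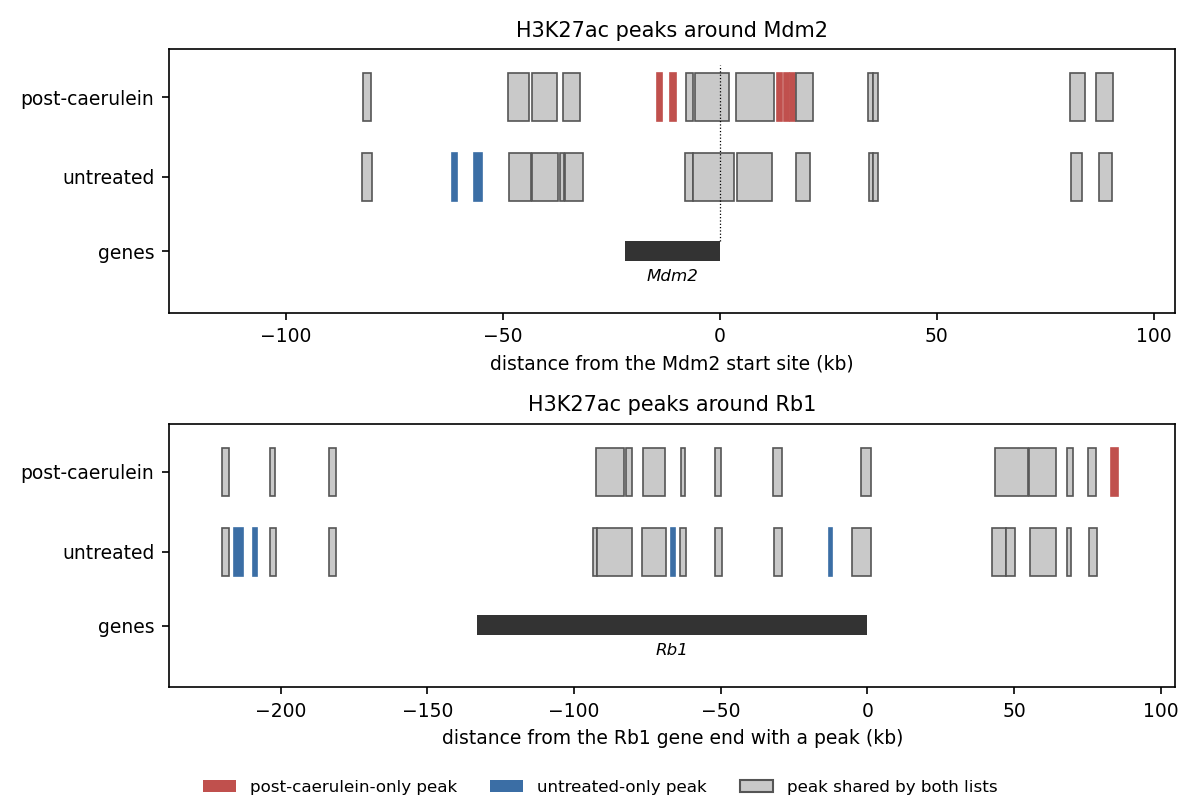
Peaks around Mdm2 and Rb1 in post-caerulein spheroids (upper row of each panel) and untreated spheroids (lower row), by distance in kb from the Mdm2 start site and from the end of Rb1 that carries a peak. Mdm2 has 5 post-caerulein-only peaks, 2 in the gene and 3 in a row beyond its start, and Rb1 has 4 untreated-only peaks and 1 post-caerulein-only peak.

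In covered length the genes differed less than in list-only peaks. The length under peaks within 100 kb was lower after caerulein at 8 genes and higher at 2. Over the 18332 genes with a peak it was lower at 8625 and higher at 9705. Cdkn2a and Cdkn2b, both among the 8, share most of their peaks. Within 50 kb the length was also higher after caerulein at Cdkn1a (31.7 kb against 29.2 kb) and Cdkn1b (27.3 kb against 26.5 kb). Within 100 kb none of the 10 passed a 1.5-fold difference. Of all genes with a peak, 6.24% were past it with more and 6% with less after caerulein. The log2 ratio of post-caerulein to untreated length, with 1 kb added to each, had a median of -0.10 over the 10 genes and 0.02 over all. Peaks covered 33.8 kb around Cdkn2a after caerulein, against 45.8 kb without treatment (log2 ratio -0.43). Around Cdkn2b they covered 28.5 kb, against 39.0 kb without treatment (-0.44). Rb1 had 63.5 kb in post-caerulein spheroids, against 69.7 kb in untreated ones, and Cdkn1a 57.9 kb against 63.0 kb. Cdkn2d had 49.7 kb in post-caerulein spheroids, against 53.9 kb in untreated ones, Cdkn1b 67.4 and 69.4 kb, Trp53 36.4 and 38.3 kb, and Cdkn2c 22.2 and 23.5 kb. On the other side stood Mdm2, with 54.1 kb in post-caerulein spheroids against 51.5 kb in untreated ones, and Cdkn1c, with 20.4 and 17.6 kb. These differences depended on low-scoring peaks. With only peaks at or above the 25th percentile of score kept, Cdkn1c (log2 ratio -0.15) and Mdm2 (-0.01) were lower after caerulein. Trp53 (0.06) and Cdkn1b (0.01) were then higher, and Cdkn2a and Cdkn2b stood at -0.17 and -0.18. Counted within 10 kb of the body, Cdkn2a passed the limit, with 6.17 kb in post-caerulein spheroids against 10.8 kb in untreated ones (log2 ratio -0.73). That span held 2 post-caerulein and 5 untreated peaks. Of the 5, 3 were untreated-only, all in the lowest 25% of their list. The share of all genes past the limit within 10 kb is not given here. In that span Cdkn1c had 1.3 kb after caerulein and no peak in the untreated list, so no fold is given.

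**Figure D5:**
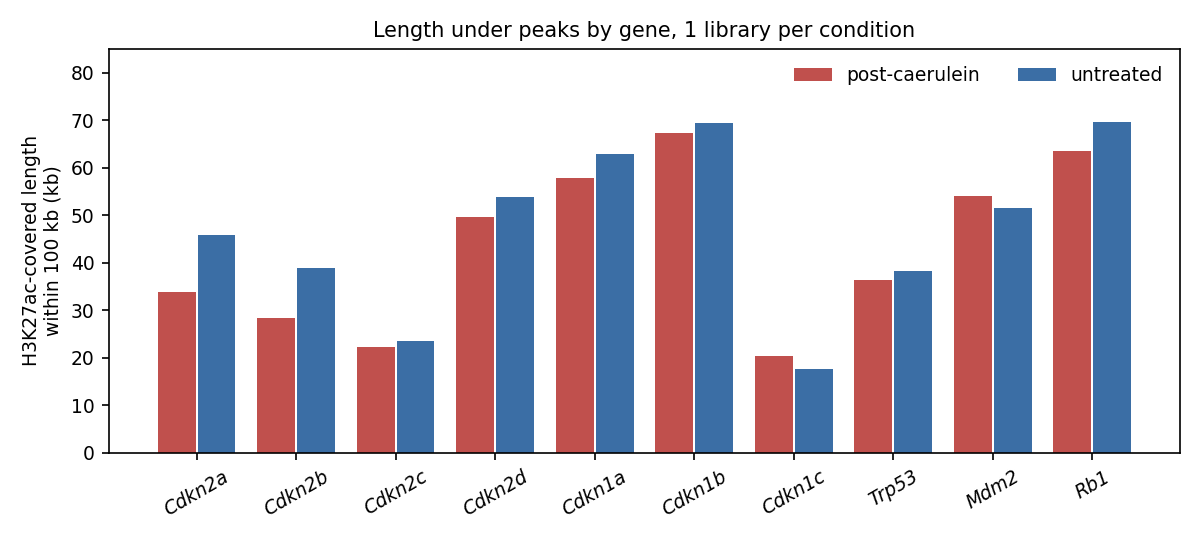
Length under H3K27ac peaks within 100 kb of each gene body (kb), with post-caerulein spheroids in red to the left of untreated spheroids in blue; each bar is 1 library. Bars of a pair are close at most genes, with the largest relative gaps at Cdkn2b (28.5 kb in red, 39.0 kb in blue) and Cdkn2a (33.8 kb in red, 45.8 kb in blue).

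Shared peaks with a single partner in the other list were also compared in width. Of 76 such pairs near the checkpoint genes, 32 were wider after caerulein and 44 were wider in untreated spheroids (57.9%); over all 27197 pairs 44.5% were wider in untreated spheroids. The median ratio of post-caerulein to untreated width was 0.98 near these genes and 1.02 over all pairs. The pairs near Cdkn2a were wider in untreated spheroids in 7 of 8 cases, whereas those near Trp53 were wider after caerulein in 4 of 4. Past 1.5-fold there was 1 pair wider after caerulein, near Rb1, and 3 wider in untreated spheroids, near Rb1, Cdkn2c and Cdkn1b; over all pairs 8.58% and 5.65% were past it. In each list 7 peaks overlapped more than 1 peak of the other list.

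The wider pathway lists, given beside the 10 genes for context, leaned to either side. Of 30 p53 target genes, Cdkn1a and Mdm2 included, 12 leaned to the post-caerulein side and 11 to the untreated side within 100 kb, and the median log2 ratio of covered length was -0.04. The rule for named genes, in which equal differences were ordered by covered length, gave Sesn2, a stress-induced inhibitor of mTORC1 signalling (4 post-caerulein-only and 0 untreated-only), and Ccng1, which encodes cyclin G1, Phlda3, an inhibitor of Akt, and the phosphatase gene Dusp14 (0 and 3 each). Equal in size but on the post-caerulein side, and named after their values were seen, were Perp and Plk2 (4 and 1 each) and Pidd1 and Trp53inp1 (3 and 0 each). At Ccng1 peaks covered 15.0 kb in post-caerulein spheroids, against 20.5 kb in untreated ones. Of 20 genes acting on p53 or related to it, 7 leaned to each side. The p53 relatives Trp73 (3 and 0) and Trp63 (2 and 0), the SUMO ligase gene Pias1 (3 and 0) and the kinase gene Hipk2 (4 and 2) had more post-caerulein-only peaks. Differences of the size of those at Trp63 and Hipk2 were found on the untreated side at the kinase gene Chek2 (0 and 2) and the deubiquitinase gene Usp7 (1 and 3), also named after their values were seen, and at Trp53 itself. Mdm4 had 2 and 0. Trp63 passed the 1.5-fold limit, with 14.8 kb under peaks in post-caerulein spheroids against 8.4 kb in untreated ones.

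Of 23 RB, E2F and G1 cyclin-CDK genes, Rb1 included, 11 leaned to the post-caerulein side and 5 to the untreated side (median log2 ratio 0.09); over all genes 35.8% and 32% did. Ccna2, which encodes cyclin A2, had 3 and 0, and E2f3, the E2F partner gene Tfdp2 and the cyclin D1 gene Ccnd1 had 2 and 0 each. Peaks covered 14.4 kb around E2f3 in post-caerulein spheroids, against 9.5 kb in untreated ones. Of 20 regulators of the Ink4 and Arf genes, 7 leaned to the post-caerulein side and 5 to the untreated side. Ets1, an activator of Ink4a transcription, had 5 and 1 and passed the 1.5-fold limit (51.1 kb in post-caerulein spheroids, against 32.9 kb in untreated ones); Ets2 had 3 and 1. The Polycomb genes Phc2 (3 and 1) and Cbx7 (2 and 0) also had more post-caerulein-only peaks, whereas the histone demethylase gene Kdm6b and the Polycomb gene Eed (0 and 2 each), named after their values were seen, had more untreated-only peaks. The differences between these lists and the 10 genes were not tested.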

How the data were processed

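H3K27ac chromatin immunoprecipitation and sequencing of pancreatic spheroids gave 1 deposited peak list for each condition. Per the submitters' processing notes, reads were handled with Trimmomatic 0.38, Bowtie2 2.2.6, SAMtools and MACS 1.4 on GRCm38 (mm10); the sources used here do not give the caller's control library or options. Each list belongs to 1 library, so samples were not pooled. The deposited lists hold chromosome, start, end, name and the authors' score, which no header defines. The score depends on depth, which is unknown, and 15.0% of post-caerulein and 22.3% of untreated peaks stand at or above 3100, so scores were only ranked within a list.

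Starts were converted to 1-based coordinates. Peaks overlapping by at least 1 bp counted as shared (checked against bedtools 2.31.1, with the same 6792 post-caerulein-only and 5402 untreated-only peaks), and windows reached 100 kb from the gene body. The overlap and window code was tested on simulated data. Gene bodies (21887 protein-coding genes) and promoters came from RefSeq tables of GRCm38.p6, which gave start sites for 8 of the 10 genes; exons were not used. Python 3.11.15, pandas 2.3.3 and scipy 1.17.1 were used. A fold limit of 1.5 stood in for a test. The named genes are all 10 genes, every list-only peak, the widest peak, and up to 4 others per gene list with the largest difference in list-only peaks, ties going to the larger absolute log2 ratio of covered length. The members and lists were chosen with earlier results of these data known.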

Additional observations from a re-analysis of the deposited data

How the results depend on the processing

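No paired analysis was possible because the conditions have 1 library each; leaving out a library could not be tried either. Counts are given as post-caerulein first and untreated second. Within 50 kb of the genes there were 8 and 10 list-only peaks, with 3 and 5 genes leaning. Within 10 kb there were 3 and 6 list-only peaks, with 2 and 3 genes leaning. With list-only peaks held to the 25th percentile of score there were 1 and 5, with 0 and 4 genes leaning; at the median score there were 0 and 0, and 0 and 0 genes. Merging within 1 kb left 5 and 19 list-only peaks, with 1 and 7 genes leaning. Counting a peak only for the gene with the nearest end gave 3 and 8 peaks, with 2 and 4 genes leaning. Fewer peaks enter under each of these by construction. Requiring 50% overlap, counting peaks within 1 kb as shared and taking equal numbers of peaks gave counts within 1.5 times of those reported, as did leaving out the Cdkn2a and Cdkn2b windows, an alternative chosen after seeing the data. The direction reversed at Cdkn1a within 50 kb (a difference of 1, post-caerulein-only minus untreated-only) and at Mdm2 with the 25th percentile limit (-1). Under that limit the difference was 0 at Cdkn2a and -1 at Cdkn2b. In covered length, 1 gene was past 1.5-fold lower after caerulein within 50 kb (Cdkn2a) and within 10 kb, where 1 was also past it higher (Cdkn1c, with no untreated peak there). The shares of all genes past 1.5-fold in these narrower spans are not given here. With peaks held to the 25th percentile of score, covered length turned lower after caerulein at Cdkn1c and Mdm2 and higher at Trp53 and Cdkn1b. The median log2 ratio over the genes was then -0.05. The numbers of pathway genes leaning within 50 kb were 10 and 7 p53 targets and 6 and 7 p53 regulators. They were 7 and 3 RB and E2F genes and 7 and 3 regulators of Ink4 and Arf. The start-site calls did not change with a peak over the site itself or within 2.5 kb. Unknown depth limits every list-only count, since most of these peaks rank low in their list.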
